A study of Mus musculus with 36 samples.

Results

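The RUNX genes Runx1, Runx2 and Runx3 and their partner gene Cbfb were followed through mesenchymal stem cells (MSCs) of 4 mouse tissues. These 4 genes were taken by name from the 24411 genes listed per library, by a rule that uses no measured value, although earlier results of these data were known when they were chosen. Around each gene, all accessible regions within 100 kb of its span were added, which gave 111 regions of 89849 in the union of the 4 tissues.

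MSCs were cultured from femoral bone marrow (fBM-MSCs), vertebral bone marrow (vBM-MSCs), adipose tissue (A-MSCs) and lung (P-MSCs) of untreated C57BL6/J mice that were 8 weeks old. The labels name no genotype or treatment beyond the tissue. All cells were grown in MesenCult medium and used within 3 passages, the bone marrow after crushing of the bone and the other tissues after collagenase digestion, so that in comparisons of bone marrow with the other tissues the way of isolation cannot be told apart from the tissue. RNA-seq was analysed in 11 libraries, 3 per tissue except for the vBM-MSCs with 2, which the labels number as biological replicates, while ATAC-seq, which marks accessible DNA by transposase insertion, is given as 1 pooled peak list per tissue. By the study's methods each mouse gave all of the tissues, but no label ties a library to a mouse, and the tests took all libraries as independent.

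RUNX proteins are transcription factors that share a DNA-binding Runt domain, and each binds DNA weakly on its own. CBFβ, the product of Cbfb, binds no DNA itself but joins a RUNX protein and strengthens its hold on DNA. RUNX1 is known for its role in blood stem cells, RUNX2 as the factor without which osteoblasts do not form, and RUNX3 for its roles in T cells, sensory neurons and, together with RUNX2, cartilage. Each of the RUNX genes has a distal promoter, P1, and a proximal promoter, P2, which give proteins with different N termini.

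In the mm10 assembly (GRCm38), Runx1 lies on the minus strand at chr16:92601466-92826074, Runx2 on the minus strand at chr17:44495987-44814797, Runx3 on the plus strand at chr4:135120645-135177990 and Cbfb on the plus strand at chr8:105170674-105217989. The P1 start is the outer end of each RUNX gene. The P2 start lies inside the gene, at position 92697329 for Runx1, 44736648 for Runx2 and 135152545 for Runx3. Runx2 overlaps Supt3, a gene of the opposite strand, and the Smart-seq2 libraries carry no strand, so reads of the overlap cannot be told apart.

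The sequences of the 3 distal promoters are shown first, because P1 of Runx3 and of Runx1 was accessible in some tissues and not listed in others. Each is the 200 bases just before the P1 start, read from mm10 on the strand of the gene, from 5′ to 3′. Capitals mark the core letters bound by RUNX proteins, TGTGGT or TGCGGT or their reverse complements ACCACA and ACCGCA.

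Runx3 P1, chr4:135120445-135120644, plus strand: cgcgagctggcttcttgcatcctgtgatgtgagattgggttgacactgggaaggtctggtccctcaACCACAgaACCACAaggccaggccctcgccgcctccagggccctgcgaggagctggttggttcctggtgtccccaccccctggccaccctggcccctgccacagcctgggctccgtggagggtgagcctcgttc
Runx2 P1, chr17:44814798-44814997, minus strand: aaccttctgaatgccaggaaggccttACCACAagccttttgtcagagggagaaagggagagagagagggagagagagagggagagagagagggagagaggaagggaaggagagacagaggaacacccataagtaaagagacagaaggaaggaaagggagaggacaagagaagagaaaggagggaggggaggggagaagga
Runx1 P1, chr16:92826075-92826274, minus strand: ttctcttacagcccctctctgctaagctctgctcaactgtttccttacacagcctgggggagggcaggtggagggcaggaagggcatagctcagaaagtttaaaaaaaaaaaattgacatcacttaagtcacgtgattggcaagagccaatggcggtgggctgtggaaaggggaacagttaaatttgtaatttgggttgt

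The window before Runx3 P1 held 2 matches, a pair of ACCACA separated by a short spacer, that before Runx2 P1 held 1 match and that before Runx1 P1 none. Among 30179 starts of curated RefSeq transcripts on chromosomes 1 to 19, 14.4% had at least 1 match in the same window and 1.21% had at least 2. The windows before the 3 P2 starts and before Cbfb held no match. Within 100 bp of the ATAC-seq summit at Runx1 P1, which lies past the start, there were 3 matches. A match is a description of the letters and was not tested for binding.

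The RNA-seq libraries held 19569650 to 40517739 expected counts, with a median of 34414200. The 9 positive MSC markers had a summed level of 1095 to 2521 TPM (a level per transcript length, scaled to a fixed sum per library), most of it from Itgb1, Cd44 and Ly6a. Some of them were low in 1 or more tissues. Nt5e (CD73) stood at 0 to 0.48 TPM in P-MSCs and 0.29 to 0.86 TPM in A-MSCs, and Pdgfra at 0.27 to 0.76 TPM in fBM-MSCs. Several defining markers of blood cells were low, and others were not. Ptprc, the pan-leukocyte gene, reached at most 0.35 TPM, Cd3e of T cells at most 0.07 TPM, and Adgre1 of macrophages at most 0.34 TPM. The macrophage genes Cd68 and Csf1r reached 18.5 TPM in fBM-MSCs and 6.56 TPM in A-MSCs, and the endothelial gene Pecam1 stood at 3.84 TPM in A-MSC replicate 1 and at most 0.34 TPM in all other libraries. In bulk RNA, fewer cells of a type and less RNA per cell cannot be told apart.

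Runx1 was highest in A-MSCs, Runx2 in fBM-MSCs, and Runx3 was found in bone marrow MSCs alone apart from a few reads, while Cbfb was present at a high level throughout. All 4 genes passed the edgeR test across the 4 tissues, as did 60.6% of the 12509 genes tested. The Benjamini-Hochberg adjusted p of the edgeR quasi-likelihood test was 0.000584 for Runx1, 0.00109 for Runx3, 0.00189 for Runx2 and 0.0202 for Cbfb. The test for Cbfb lost its call when P-MSC replicate 1 or 2 was left out (adjusted p = 0.0622 and 0.0663).

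**Figure D1:**
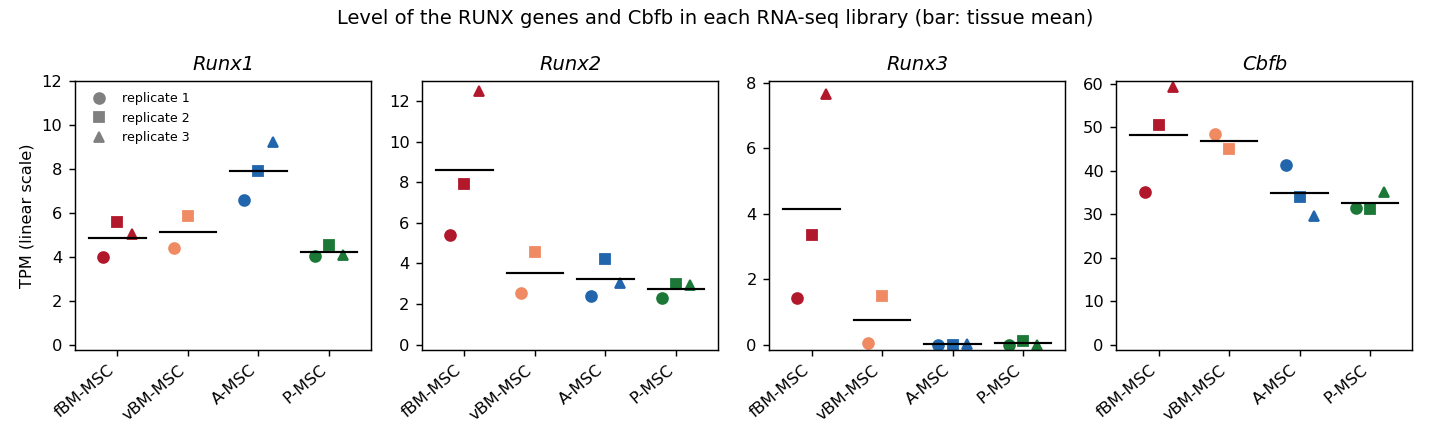
TPM of each gene (linear scale) in every RNA-seq library, with 1 panel per gene, 1 column per tissue, 1 marker shape per replicate number and a bar at the tissue mean. The A-MSC libraries stood above all others for Runx1 (6.62 to 9.22 TPM) and the fBM-MSC libraries for Runx2 (5.40 to 12.5 TPM), while Runx3 was at or near 0 in A-MSCs and P-MSCs.

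Runx1 was measured at 6.62, 7.91 and 9.22 TPM in the 3 A-MSC libraries. It was at 4.0, 5.59 and 5.07 TPM in fBM-MSCs, at 4.41 and 5.86 TPM in vBM-MSCs, and at 4.05, 4.57 and 4.09 TPM in P-MSCs. Every A-MSC library thus lay above every library of the other tissues, a pattern that 4.32% of the tested genes showed, and the other 3 tissues overlapped each other. The mean was 7.92 ± 1.30 TPM in A-MSCs (SD, n = 3), 5.14 ± 1.03 in vBM-MSCs (n = 2), 4.89 ± 0.811 in fBM-MSCs (n = 3) and 4.24 ± 0.289 in P-MSCs (n = 3). Some markers of other cell types were also highest in A-MSCs. Csf1r of macrophages stood at 5.46 to 6.56 TPM there and at most 2.76 TPM elsewhere, and the epithelial keratin gene Krt18 at 11.1 to 27.1 TPM against at most 1.01 TPM. Others of these lists were not highest there. The 14 macrophage markers summed to 19.5 to 27.9 TPM in A-MSCs and 45.3 to 71.9 TPM in fBM-MSCs, and the 6 epithelial markers, Krt19 among them, to 28.7 to 55.0 TPM in A-MSCs and 52.4 to 61.3 TPM in P-MSCs. The 7 endothelial markers summed to 4.54 to 11.2 TPM in A-MSCs and at most 5.46 TPM elsewhere. The part of these cell types in the level of Runx1 was not tested.

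The log2 fold change of Runx1 in A-MSCs over P-MSCs was 1.10 (SE 0.16, edgeR adjusted p = 0.000585), where 30.9% of the genes were called. Runx1 was lower in fBM-MSCs than in A-MSCs (log2 fold change −0.78, SE 0.16, edgeR adjusted p = 0.00241, against 40.9% of the genes called). It was also lower in vBM-MSCs than in A-MSCs (−0.75, SE 0.18, edgeR adjusted p = 0.0109, 25.6% called), a call that was lost without vBM-MSC replicate 1 (adjusted p = 0.0728) and in limma-trend on log2(TPM + 1) (adjusted p = 0.0692). The other neighbours in the order did not pass. The difference of fBM-MSCs from vBM-MSCs was −0.03, with an unadjusted 95% interval of −0.42 to 0.35, and that of vBM-MSCs from P-MSCs was 0.35, with an interval of −0.03 to 0.73.

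Runx2 was measured at 5.40, 7.89 and 12.5 TPM in the 3 fBM-MSC libraries. The values were 2.55 and 4.54 TPM in vBM-MSCs, 2.40, 4.23 and 3.04 TPM in A-MSCs, and 2.30, 2.96 and 2.94 TPM in P-MSCs. The fBM-MSC libraries lay above all others, as for 7.57% of the tested genes, and the vBM-MSC libraries fell within or next to the range of A-MSCs and P-MSCs. The mean was 8.59 ± 3.59 TPM in fBM-MSCs (SD, n = 3), 3.54 ± 1.41 in vBM-MSCs (n = 2), 3.22 ± 0.929 in A-MSCs (n = 3) and 2.73 ± 0.375 in P-MSCs (n = 3). The macrophage gene Cd68, at 12.3 to 18.5 TPM, and the osteoclast gene Atp6v0d2, at 15.0 to 23.0 TPM, were likewise highest in the 3 fBM-MSC libraries, against at most 7.38 and 0.83 TPM in the others. Other members of these lists were not, as Csf1r stood at 0.60 to 0.89 TPM in fBM-MSCs against 5.46 to 6.56 TPM in A-MSCs, Acp5 at 0.21 to 0.77 TPM against 1.38 to 2.77 TPM, and 7 of 14 macrophage markers were at 0 in every fBM-MSC library. The part of these cell types in the level of Runx2 was not tested.

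The log2 fold change of Runx2 in fBM-MSCs was 1.72 over P-MSCs (SE 0.31, edgeR adjusted p = 0.000837), where 47.7% of the genes were called. It was 1.28 over A-MSCs (SE 0.31, edgeR adjusted p = 0.00643). Over vBM-MSCs it was 1.31 (SE 0.35, edgeR adjusted p = 0.0324), against 12.8% of the genes called. This last call was lost without fBM-MSC replicate 2, fBM-MSC replicate 3 or vBM-MSC replicate 1 (adjusted p = 0.0559, 0.0714 and 0.216), and in a fit of these 2 tissues alone (adjusted p = 0.132). Between vBM-MSCs and A-MSCs the difference of Runx2 was −0.03, with an unadjusted 95% interval of −0.78 to 0.71, and between vBM-MSCs and P-MSCs 0.41 (interval −0.33 to 1.15). Supt3, a transcription cofactor gene, had 6.93 to 9.35 TPM in fBM-MSCs, 7.85 and 8.53 TPM in vBM-MSCs, 9.36 to 10 TPM in P-MSCs and 9.72 to 13.3 TPM in A-MSCs. The part of the overlap in the level of Runx2 was not tested.

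Runx3 was measured at 1.43, 3.34 and 7.67 TPM in the 3 fBM-MSC libraries. In vBM-MSCs it was at 0.04 TPM in replicate 1 and 1.48 TPM in replicate 2. It was at 0, 0 and 0.03 TPM in A-MSCs and at 0, 0.10 and 0 TPM in P-MSCs. Expected counts were 71, 273 and 738 in fBM-MSCs and 3 and 133 in vBM-MSCs, against 3 summed over the 3 A-MSC libraries and 8 over the 3 P-MSC libraries. Thus vBM-MSC replicate 1 was at the level of the non-bone marrow libraries, and its partner at that of the lowest fBM-MSC library. Runx3 reached a CPM (counts scaled to a fixed library size) of 1 in only 4 libraries, so it passed the filter on low counts through bone marrow libraries alone and its difference across tissues is partly built in. The deposited row of Runx3 rests on the transcript that starts at P1.

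Summed over libraries, Runx3 had 12.2 CPM in fBM-MSCs, 2.06 in vBM-MSCs, 0.0755 in P-MSCs and 0.0275 in A-MSCs. Single libraries carried most of these sums. Replicate 3 held 738 of the 1082 counts of fBM-MSCs, and replicate 2 held 133 of the 136 of vBM-MSCs. All 8 counts of P-MSCs were in replicate 2 and all 3 of A-MSCs in replicate 3. The ratio of fBM-MSCs was 444 over A-MSCs, with an exact 95% interval for counting error of 152 to 2159, and 162 over P-MSCs (81.9 to 376). Over vBM-MSCs it was 5.92 (4.95 to 7.13). These intervals leave out the spread between libraries, which was wide, with a coefficient of biological variation of 113% in the edgeR fit against 15.1% for Runx1. With that spread, edgeR called Runx3 higher in fBM-MSCs than in A-MSCs (adjusted p = 0.00196, 40.9% of the genes called) and P-MSCs (adjusted p = 0.00202, 47.7% called). As Runx3 passed the filter on low counts through bone marrow libraries alone, its calls over A-MSCs and P-MSCs are partly built in. In vBM-MSCs Runx3 was called higher than in A-MSCs (edgeR adjusted p = 0.0248) and P-MSCs (adjusted p = 0.0276, 38.7% of the genes called), but without vBM-MSC replicate 2 neither call remained (adjusted p = 0.631 and 0.854). The call over A-MSCs was also lost without A-MSC replicate 1, 2 or 3 (adjusted p = 0.0739, 0.0800 and 0.0509), and that over P-MSCs without P-MSC replicate 1 or 3 (adjusted p = 0.0860 and 0.0856) and in DESeq2 (adjusted p = 0.104). Both vBM-MSC calls were also lost in limma-trend on log2(TPM + 1) (adjusted p = 0.294 and 0.277). The log2 difference of 2.56 between fBM-MSCs and vBM-MSCs did not pass in edgeR (SE 1.30, adjusted p = 0.225, unadjusted 95% interval −0.29 to 5.41), whereas limma-trend called it (adjusted p = 0.0421), as did edgeR without vBM-MSC replicate 2 (adjusted p = 0.0441).

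Markers of macrophages, a cell type that expresses RUNX genes, moved with Runx3 in part. Their summed level over 14 genes was 45.3 to 71.9 TPM in fBM-MSCs and 24.7 to 54.5 TPM in vBM-MSCs, against 15.1 to 17.0 TPM in P-MSCs and 19.5 to 27.9 TPM in A-MSCs. In fBM-MSCs, 7 of the 14 were at 0 in every library, Adgre1, Itgam and Tyrobp among them, and Ptprc was at 0 to 0.02 TPM. Other members were expressed there. Fcer1g, an Fc receptor subunit gene, was at 4.70 to 19.8 TPM in fBM-MSCs, at 0 and 8.21 TPM in vBM-MSCs and at 0 elsewhere, as Runx3 nearly was. Cd68 was at 12.3 to 18.5 TPM in fBM-MSCs and at 0.87 to 7.38 TPM in the other libraries. Lyz2, the largest part of the sum in bone marrow MSCs, was at 22.2 to 36.4 TPM in fBM-MSCs and 19.8 and 38.6 TPM in vBM-MSCs, against 1.76 to 12.8 TPM elsewhere. Csf1r went the other way, at 0.60 to 0.89 TPM in fBM-MSCs and 5.46 to 6.56 TPM in A-MSCs. The 7 markers of T and NK cells, which use RUNX3, summed to at most 0.15 TPM in fBM-MSCs, with 6 of them at 0 in every library, Cd3e included. The 7 osteoclast markers summed to 204 to 317 TPM in fBM-MSCs, 141 and 257 TPM in vBM-MSCs, 60.0 to 70.4 TPM in P-MSCs and 61.3 to 72.7 TPM in A-MSCs, nearly all of it from Ctsk (180 to 301 TPM in fBM-MSCs), and Acp5, which defines osteoclasts, stood at 0.21 to 0.77 TPM in fBM-MSCs and was highest in A-MSCs, at 1.38 to 2.77 TPM. Atp6v0d2, a proton pump subunit gene of the same list, was at 15.0 to 23.0 TPM in fBM-MSCs, at 0.11 and 0.83 TPM in vBM-MSCs and at 0 elsewhere. The part of these cell types in the level of Runx3 was not tested.

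Cbfb was the most abundant of the 4 genes in every library. It was measured at 35.1, 50.6 and 59.2 TPM in fBM-MSCs and at 48.6 and 45.0 TPM in vBM-MSCs. In A-MSCs it was at 41.3, 33.9 and 29.6 TPM, and in P-MSCs at 31.5, 31.1 and 35.0 TPM. The fBM-MSC range overlapped that of A-MSCs and reached the edge of the P-MSC range, while both vBM-MSC libraries lay above all non-bone marrow libraries. The mean was 48.3 ± 12.2 TPM in fBM-MSCs (SD, n = 3), 46.8 ± 2.54 in vBM-MSCs (n = 2), 34.9 ± 5.92 in A-MSCs (n = 3) and 32.6 ± 2.13 in P-MSCs (n = 3). The log2 fold change over P-MSCs was 0.68 in fBM-MSCs (SE 0.17, edgeR adjusted p = 0.00718). In vBM-MSCs it was 0.61 (SE 0.19, edgeR adjusted p = 0.0264), a call lost without vBM-MSC replicate 1, P-MSC replicate 1 or P-MSC replicate 2 (adjusted p = 0.173, 0.0702 and 0.0758) and in limma-trend (adjusted p = 0.0573). The other pairs did not pass, and over A-MSCs the difference of fBM-MSCs was 0.40 (SE 0.17, edgeR adjusted p = 0.0898), called only without fBM-MSC replicate 1 (adjusted p = 0.0134).

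To compare both bone marrow tissues with both others, the mean of fBM-MSCs and vBM-MSCs was set against the mean of A-MSCs and P-MSCs. In this comparison 3 of the 4 genes were higher in bone marrow MSCs, against 47.2% of all tested genes called, 24.8% higher and 22.4% lower. The log2 fold change was 0.84 for Runx2 (SE 0.23, edgeR adjusted p = 0.00941) and 0.50 for Cbfb (SE 0.13, edgeR adjusted p = 0.00754). Runx3 entered this test through bone marrow libraries alone, so that its call (adjusted p of 0.000515) is partly built in, and its fitted fold is not a bound, since it depends on the prior count. Runx1 did not pass (−0.22, SE 0.12, edgeR adjusted p = 0.157, unadjusted 95% interval −0.48 to 0.04). The value for Runx2 averages tissues that differed from each other, as fBM-MSCs lay above A-MSCs and vBM-MSCs did not.

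**Figure D2:**
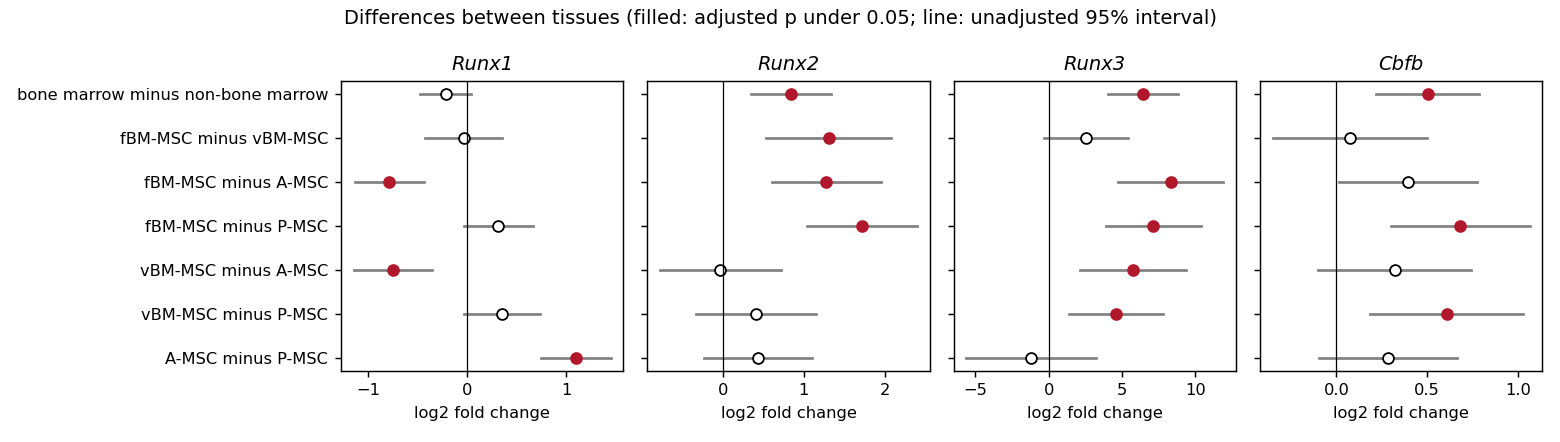
Log2 fold change of each gene between the bone marrow tissues and the others and between each pair of tissues, from edgeR over 11 libraries, with unadjusted 95% intervals as lines and filled points at an adjusted p under 0.05. The panels have different horizontal scales. For Runx1 the 3 filled points are those that compare a tissue with A-MSCs, and for Runx2 the filled pairs are the 3 with fBM-MSCs.

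The make-up of the RUNX family was given by the share of each gene in the summed TPM of the 3 RUNX genes. Runx2 led in fBM-MSCs, with 49.9%, 46.9% and 49.5% of the sum. Runx1 led in every library of the other tissues, with 63.0% and 49.3% in vBM-MSCs, 65.2% to 75.0% in A-MSCs and 58.2% to 63.8% in P-MSCs. Runx3 made up 13.2%, 19.9% and 30.4% in fBM-MSCs, 0.571% and 12.5% in vBM-MSCs, and at most 1.31% elsewhere. The summed RUNX level was 10.8 to 25.2 TPM in fBM-MSCs and 6.35 to 7.63 TPM in P-MSCs. Cbfb exceeded the RUNX sum in every library, by 2.35-fold in fBM-MSC replicate 3 to 6.94-fold in vBM-MSC replicate 1.

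**Figure D3:**
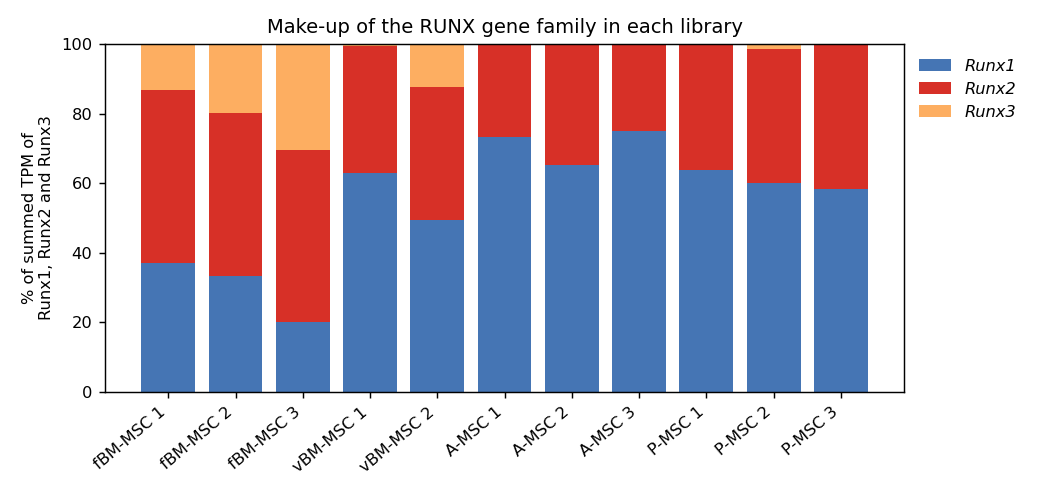
Share of Runx1, Runx2 and Runx3 in their summed TPM (in %) in each RNA-seq library, 1 bar per library. Runx2 takes the largest share in the 3 fBM-MSC libraries (46.9% to 49.9%), and Runx1 in all other libraries (49.3% to 75.0%).

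The log2 ratio of Runx1 to Runx2 was −0.42, −0.49 and −1.28 in fBM-MSCs, 0.77 and 0.36 in vBM-MSCs, 1.43, 0.89 and 1.57 in A-MSCs, and 0.79, 0.61 and 0.46 in P-MSCs. It was negative in the fBM-MSC libraries only, and the vBM-MSC libraries overlapped those of P-MSCs. With a pseudocount of 0.1 TPM, the mean was −0.21 over the 5 bone marrow libraries and 0.96 over the 6 others, a difference of −1.17 (two-sided exact permutation p = 0.0108 over 462 partitions, where the smallest p is 0.00217). That difference was −0.90 without fBM-MSC replicate 3.

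Genes known as RUNX2 targets in bone and cartilage were higher in bone marrow MSCs, 16 of 20 tested, and none was called lower by edgeR, against 24.8% of all tested genes higher and 22.4% lower. The median log2 fold change was 4.09, against 0.03 over all genes. Of the 16 genes, 7 (Sp7, Bglap, Bglap2, Ibsp, Alpl, Col10a1 and Dmp1) reached 1 CPM in bone marrow libraries only, so that their calls are partly built in by the filter on low counts. Of the 13 that reached it on both sides, 9 were higher, with a median of 1.67, against 23.7% of all such genes. Among macrophage and osteoclast markers, Lyz2, Ctsk, Fcer1g and Atp6v0d2 were also called higher, the last 2 entering through bone marrow libraries alone. Csf1r was called lower, and Cd68, Cd14, Oscar and Acp5 were not called. The part of these cell types in the level of the targets was not tested. Spp1, which encodes the bone matrix protein osteopontin, was at 26353, 38360 and 84015 TPM in fBM-MSCs, 1562 and 9037 TPM in vBM-MSCs, and 160 to 384 TPM in A-MSCs and P-MSCs. Sp7, the osteoblast factor that acts after RUNX2, was at 10.1, 23.7 and 64.3 TPM in fBM-MSCs and 2.62 and 9.71 TPM in vBM-MSCs, against at most 0.16 TPM elsewhere (edgeR adjusted p = 1.54e-05). The library with the most Runx3, fBM-MSC replicate 3, also had the most Runx2, Sp7 and Spp1 of all libraries. This did not hold for every target, as Mmp13 was at 139 TPM in that library and highest in vBM-MSC replicate 2, at 336 TPM.

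The 4 targets with the largest fitted folds were Ibsp, Alpl, Dmp1 and Bglap. Ibsp (bone sialoprotein) was at 218 to 1010 TPM in fBM-MSCs and 16.9 and 321 TPM in vBM-MSCs, against at most 0.08 TPM elsewhere (edgeR adjusted p = 2.68e-06). Alpl (the bone, liver and kidney alkaline phosphatase) was at 27.6 to 173 TPM in fBM-MSCs and 11.6 and 76.9 TPM in vBM-MSCs, and at most 0.54 TPM elsewhere (edgeR adjusted p = 4.96e-05). Dmp1, a matrix protein gene of osteocytes, was at 40.4 to 159 TPM in fBM-MSCs and 0.80 and 17.2 TPM in vBM-MSCs (edgeR adjusted p = 1.01e-05). Bglap (osteocalcin) was at 155 to 1065 TPM in fBM-MSCs and 4.10 and 73.7 TPM in vBM-MSCs (edgeR adjusted p = 0.000105), but it shares reads with near-identical copies, so its level is uncertain.

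Of the partners and regulators of RUNX2, 11 of 24 tested genes were higher in bone marrow MSCs and 2 were lower, against the same 24.8% and 22.4% of all genes, with a median log2 fold change of 0.43. The lower count was 0 without vBM-MSC replicate 2 and 1 without fBM-MSC replicate 2, vBM-MSC replicate 1, A-MSC replicate 2 or 3, or any of the P-MSC replicates. The homeobox genes Dlx5, Dlx6, Dlx3 and Hoxa10 had the largest changes. Dlx5 and Dlx6 reached 1 CPM in bone marrow libraries only, so that their calls are partly built in, and of the 22 genes that reached it on both sides 9 were higher and 2 lower. Dlx5, an activator of Runx2 in osteoblasts, was at 9.09 to 44.3 TPM in fBM-MSCs, 0.27 and 5.97 TPM in vBM-MSCs and at most 0.16 TPM elsewhere (edgeR adjusted p = 0.000196). Hoxa10 was at 19.1 to 28.6 TPM in fBM-MSCs but at 0.54 and 4.11 TPM in vBM-MSCs, which overlapped the 0.70 to 6.29 TPM of A-MSCs (edgeR adjusted p = 0.000404). Dlx3 was likewise at 5.88 to 7.74 TPM in fBM-MSCs and 0.17 and 1.38 TPM in vBM-MSCs (edgeR adjusted p = 0.000224). Dlx6 was at 0.27 to 5.04 TPM in fBM-MSCs, at 0 and 0.21 TPM in vBM-MSCs and at 0 elsewhere (edgeR adjusted p = 0.0161).

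Among the RUNX cofactors, 3 of 24 tested genes were higher in bone marrow MSCs and 5 were lower, and the median log2 fold change of the 24 was −0.14. Of all genes 24.8% were higher and 22.4% lower, so that the share of lower cofactors was near that of all genes. Without A-MSC replicate 2 the higher count was 5. The Groucho family, corepressors that bind the C terminus of RUNX proteins, went both ways. Tle2 was higher (log2 fold change 2.29, SE 0.34, edgeR adjusted p = 0.000197) and so was Aes, the short family member (0.61, SE 0.08, edgeR adjusted p = 6.61e-05). Tle4 was lower (−1.24, SE 0.40, edgeR adjusted p = 0.0240), while Tle1 at 0.34 (SE 0.25) and Tle3 at −0.14 (SE 0.14) did not pass. The histone methyltransferase gene Suv39h1 (−1.36, SE 0.19, edgeR adjusted p = 0.000157) and the arginine methyltransferase gene Prmt1 (−0.95, SE 0.08, edgeR adjusted p = 2.45e-06) were lower.

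Of the genes for enzymes that modify RUNX proteins, 4 of 22 were higher and 9 lower (all genes 24.8% and 22.4%), with a median log2 fold change of −0.14. The 4 with the largest changes are genes of the cell cycle. Ccnb1, Cdc20 and Cdk1, which act in mitosis, had log2 fold changes of −3.04 (SE 0.17), −2.94 (SE 0.23) and −2.60 (SE 0.11). Ccnd1, the cyclin D1 gene, was higher by 2.57 (SE 0.08, edgeR adjusted p = 2.54e-08), with a mean of 606 TPM in fBM-MSCs and 35.4 TPM in A-MSCs.

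Targets of RUNX1 and RUNX3 in blood cells were mostly not expressed, and only 5 of 25 reached the filter on low counts, of which 2 were higher and 1 was lower in bone marrow MSCs (all genes 24.8% and 22.4%), with a median log2 fold change of 0.22. The higher count was 1 without fBM-MSC replicate 1, fBM-MSC replicate 3 or vBM-MSC replicate 2, and the lower count was 2 without fBM-MSC replicate 2. Cebpa, a myeloid and adipocyte factor gene, was higher in bone marrow MSCs (log2 fold change 3.50, SE 0.43, edgeR adjusted p = 5.16e-05). Csf1r, the receptor gene of macrophage growth factor, was lower (−2.24, SE 0.24, edgeR adjusted p = 1.75e-05) and highest in A-MSCs, at 5.46 to 6.56 TPM. Itgal, which reached 1 CPM in bone marrow libraries only, was called higher at a level of at most 0.66 TPM (edgeR adjusted p = 0.00492). Spi1, a key RUNX1 target in blood, was at 0.50 TPM in vBM-MSC replicate 2 and at 0 in all other libraries.

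The genes whose pattern over the 11 libraries was nearest to each member were found by the root mean square (RMS) difference of centred log2(TPM + 1). The libraries share their tissues, so this is a description. For Runx3, whose own RMS deviation was 1.03, the nearest were Wdr72 (RMS difference 0.181), Ptprd (0.233), Irx5 (0.247), Rapgef4 (0.254) and Syt12 (0.257). For Runx2, with an RMS deviation of 0.612, they were Gpr141 (0.179), Gnpda1 (0.199), Ncf1 (0.211), Gda (0.213) and Mxra8 (0.215). For Runx1, with 0.333, they were Slc2a5 (0.145), Rnf114 (0.145), Esyt1 (0.147), Slc4a2 (0.149) and Irak3 (0.149). For Cbfb, with 0.309, they were Use1 (0.0970), Ccni (0.0972), Park2 (0.128), Eif4a2 (0.140) and Ppapdc2 (0.142). Wdr72, nearest to Runx3, had a mean of 3.34 TPM in fBM-MSCs, 1.02 TPM in vBM-MSCs, 0 in P-MSCs and 0.0267 TPM in A-MSCs.

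Chromatin accessibility was read from the peak lists, in which a fold enrichment is the height of a summit over the genome-wide background. A region counted as listed in a tissue at a −log10 q of at least 7, the threshold of the study, which left 59536 to 71345 summits per tissue. As reads were pooled per tissue, these values have no spread between replicates and no test was made.

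**Figure D4:**
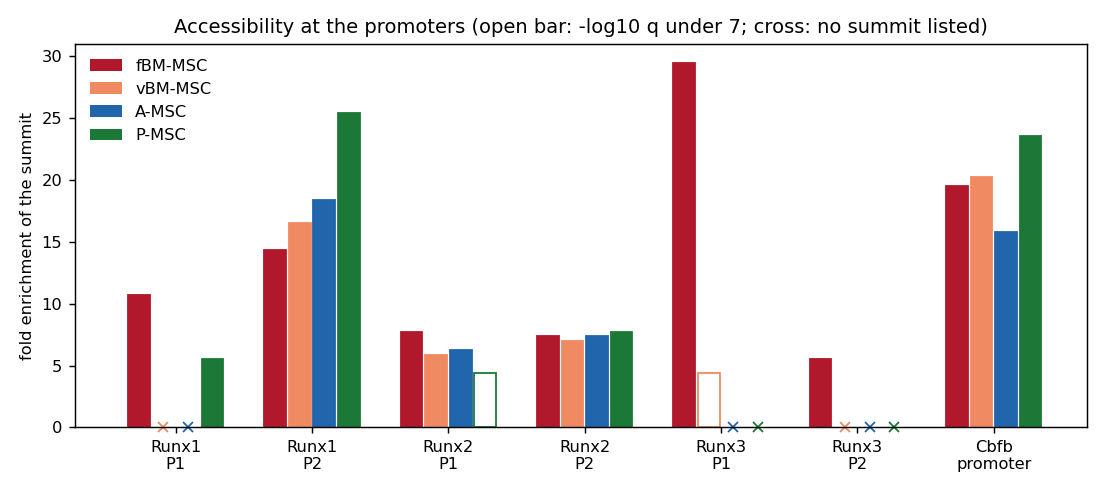
Fold enrichment of the strongest ATAC-seq summit within 1 kb of each promoter start, 1 bar per tissue, with open bars where the −log10 q was under 7 and crosses where no summit is listed. Runx3 P1 stands at 29.4 in fBM-MSCs and 4.42 in vBM-MSCs, whereas Runx1 P2 and the Cbfb promoter are filled in all 4 tissues.

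At Runx3 P1 the fold enrichment was 29.4 in fBM-MSCs, with the summit 99 bp before the start and inside the sequence printed above. It was 4.42 in vBM-MSCs, below the threshold (−log10 q of 4.53), and no summit was listed in A-MSCs or P-MSCs. At Runx3 P2 a summit was listed in fBM-MSCs only, with a fold of 5.52. Both promoters of Runx3 were therefore above the threshold in fBM-MSCs alone.

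Runx1 P1 was listed in fBM-MSCs, with a fold of 10.7, and in P-MSCs, with 5.52, and had no summit in vBM-MSCs or A-MSCs. Runx1 P2 was listed in all tissues, with a fold of 14.4 in fBM-MSCs, 25.4 in P-MSCs, 18.4 in A-MSCs and 16.6 in vBM-MSCs. The RNA level of Runx1 did not follow that order, since P-MSCs had the lowest mean TPM. Runx2 P1 had a fold of 7.72 in fBM-MSCs, 4.41 in P-MSCs, 6.25 in A-MSCs and 5.89 in vBM-MSCs, of which the value of P-MSCs was below the threshold (−log10 q of 4.57). Runx2 P2 was nearly even, at 6.99 to 7.72. The Cbfb promoter had a fold of 19.5 in fBM-MSCs, 23.5 in P-MSCs, 15.8 in A-MSCs and 20.2 in vBM-MSCs.

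Of the regions within 100 kb of Runx3, 13 of 26 were listed in fBM-MSCs only (50%), against 11.4% of all regions, and none was listed in only 1 of the other tissues. Neighbouring regions share their chromatin and are not independent. Of these 13 regions, 9 had no summit at all in another tissue and 4 had one below the threshold. For 11 of the 13, Runx3 was the gene with the nearest start. In all, 23 of the 26 regions were listed in fBM-MSCs (88.5%, against 61.6% of all regions), 11 in vBM-MSCs (42.3%, against 55.1%), 8 in P-MSCs (30.8%, against 60.2%) and 10 in A-MSCs (38.5%, against 65.4%). At a −log10 q of at least 20, 5 of 10 regions were listed in fBM-MSCs only, against 8.64% of all regions.

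After P1, the strongest of the 13 regions listed in fBM-MSCs only lay in an intron of Runx3. This intron region, 48.7 kb past the P1 start, had a fold of 10.3 and no summit in any other tissue. It held 1 match to the RUNX letters within 100 bp of the summit. Its sequence on the plus strand is shown because it was listed in fBM-MSCs only, with capitals as before.

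Runx3 intron, chr4:135169238-135169438, plus strand: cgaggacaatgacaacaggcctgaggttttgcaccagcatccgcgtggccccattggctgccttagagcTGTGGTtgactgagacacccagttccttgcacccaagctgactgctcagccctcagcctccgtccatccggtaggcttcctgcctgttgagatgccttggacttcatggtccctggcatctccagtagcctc

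Of the 13 regions listed in fBM-MSCs only, 8 held the letters in the same window, against 37.0% of all regions listed in fBM-MSCs only, and of all 26 regions 11 did, against 24.2% of all regions. The other 13 regions were each listed in 2 or more tissues. A region 24.8 kb before P1 was listed in all 4 tissues, with a fold of 15.1 in fBM-MSCs, 6.25 in P-MSCs, 6.99 in A-MSCs and 12.5 in vBM-MSCs. The highest fold in the window, 48.9 in P-MSCs, was at the promoter of the neighbour Clic4, which was listed in all 4 tissues.

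**Figure D5:**
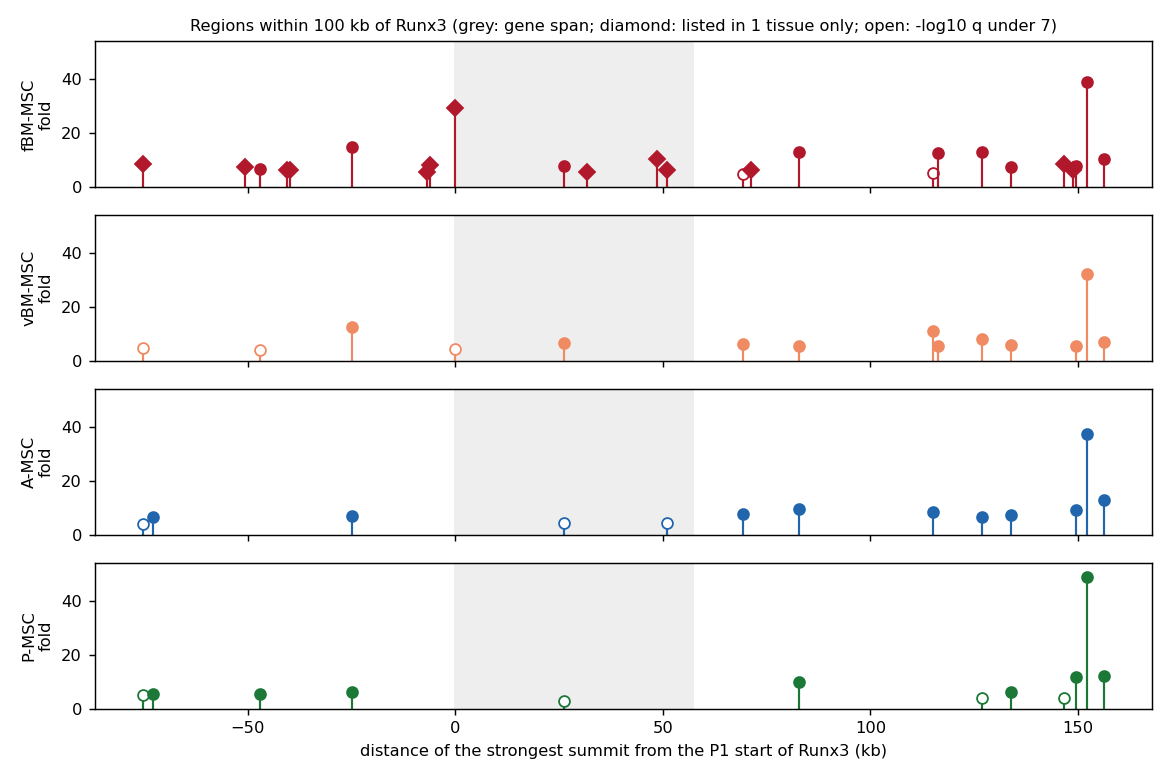
Fold enrichment of the regions within 100 kb of Runx3 (vertical) against the distance of the strongest summit from the P1 start in kb (horizontal), 1 panel per tissue, with the gene span in grey, diamonds for regions listed in 1 tissue only and open circles for a −log10 q under 7. All 13 diamonds are in the fBM-MSC panel, the highest at P1 with 29.4.

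Near Runx2, 33 regions were listed, 28 of them within the gene span. Of these 33, 17 were listed in 1 tissue only (51.5%, against 35.5% of all regions), 7 in fBM-MSCs, 5 in A-MSCs, 4 in P-MSCs and 1 in vBM-MSCs. Of all regions, 11.4% were listed in fBM-MSCs only, 9.50% in A-MSCs only, 7.77% in P-MSCs only and 6.80% in vBM-MSCs only. At a −log10 q of at least 20, 1 of 12 regions near Runx2 was listed in fBM-MSCs only, near the 8.64% of all regions. Of the 33, 6 were listed in all 4 tissues (18.2%, against 32.0%). The highest fold, 56.6 in P-MSCs, was in an intron near the 3′ end of the gene, where fBM-MSCs had 34.9, vBM-MSCs 33.9 and A-MSCs 44.9. The strongest regions listed in 1 tissue only were both in introns and both in A-MSCs, with folds of 13.2 and 10.7, although Runx2 RNA was highest in fBM-MSCs. The first of these is printed on the minus strand as the strongest 1-tissue region of Runx2, with 1 match in capitals.

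Runx2 intron, chr17:44546967-44547167, minus strand: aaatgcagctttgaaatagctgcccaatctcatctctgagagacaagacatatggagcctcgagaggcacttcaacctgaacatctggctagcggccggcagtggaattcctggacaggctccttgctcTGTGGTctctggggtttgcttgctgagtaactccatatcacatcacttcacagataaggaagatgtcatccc

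At that site P-MSCs had a summit with a fold of 2.94, below the threshold, and the bone marrow MSCs had none. All 5 regions listed in A-MSCs only had a summit below the threshold in another tissue, as did 3 of the 7 listed in fBM-MSCs only. Those 7 had folds of 5.52 to 8.83.

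Near Runx1, 30 regions were listed, 9 of them in 1 tissue only (30%, against 35.5% of all regions) and 7 in all 4 tissues (23.3%, against 32.0%). A-MSCs had 22 of the 30 (73.3%, against 65.4% of all regions), P-MSCs 19 (63.3%, against 60.2%), fBM-MSCs 17 (56.7%, against 61.6%) and vBM-MSCs 13 (43.3%, against 55.1%). Of the 1-tissue regions 4 were listed in A-MSCs (13.3% of the 30, against 9.50% of all regions), 4 in P-MSCs (13.3%, against 7.77%) and 1 in fBM-MSCs (3.33%, against 11.4%). The last turned at a −log10 q of at least 20, where 4 of 14 regions were listed in fBM-MSCs only, against 8.64% of all regions. The 1 region listed in fBM-MSCs only at a −log10 q of at least 7, with a value of 7.145, was not among these 4. The strongest 1-tissue region, listed in P-MSCs only, was in an intron 37.3 kb past the P1 start. Its fold was 16.9 in P-MSCs, 5.15 in fBM-MSCs and 4.78 in vBM-MSCs. The next was in an intron nearer the 3′ end, with a fold of 9.93 in A-MSCs, 4.78 in fBM-MSCs and 3.68 in P-MSCs.

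Near Cbfb, 11 of 22 regions were listed in all 4 tissues (50%, against 32.0% of all regions). The window is dense in genes, and 10 of the 22 regions were promoters, 9 of them of neighbours. The only region inside the gene span apart from the promoter was in an intron, with a fold of 22.1 in fBM-MSCs, 33.1 in P-MSCs, 30.5 in A-MSCs and 30.2 in vBM-MSCs. The strongest 1-tissue regions were outside the gene and weak, with folds of 7.72 in P-MSCs and 7.36 in fBM-MSCs.

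Over all peaks, the RUNX letters TGTGGT or TGCGGT, on either strand within 100 bp of a summit, were most frequent in regions listed in fBM-MSCs only. They were in 36.9% of those 10382 summits (exact binomial 95% interval 36.0% to 37.9%). The share was 22.7% (21.8% to 23.6%) in regions of A-MSCs only, 21.4% (20.4% to 22.5%) in those of vBM-MSCs only and 18.2% (17.3% to 19.1%) in those of P-MSCs only. In regions listed in all 4 tissues it was 20.3% to 21.3%. The intervals cover counting error only. Of the 111 regions near the 4 genes, 37 held the letters at the strongest summit (33.3%), against 24.2% of all 89849 regions.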

How the data were processed

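The members and all gene lists were chosen with earlier results of these data known. The authors aligned Smart-seq2 reads with RSEM and STAR to mm10 and deposited, for each library, expected counts, which are not normalized, TPM, which they scaled by RSEM for transcript length and to a fixed sum, and FPKM, scaled for length and library size. Of the 12 RNA-seq samples, vBM-MSC replicate 3 is not analysed here. For ATAC-seq the authors trimmed with TrimGalore, aligned with Bowtie keeping unique hits, removed duplicates with Picard, shifted reads for Tn5, removed blacklisted regions and called summits with MACS2 without a local background on pooled reads. To each of these 4 lists the labels assign 6 samples, from 3 replicates with 2 runs each. The deposited lists give the fold enrichment (a ratio) and the −log10 p and −log10 q of each summit. Software versions are not given in the sources used here.

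After rounding of the expected counts, 1 edgeR model (4.0.16, R 4.3.3) for the 11 libraries, grouped by tissue, was fitted and tested by the two-sided quasi-likelihood F test after TMM normalization, with a Benjamini-Hochberg adjusted p under 0.05 as the threshold. The 12509 genes that reached 1 CPM in 2 or more libraries entered. DESeq2 1.42.0 and limma-trend (limma 3.58.1) were alternatives. Fold enrichment steps of 0.368 per read were the same in the 4 lists. Regions overlapping by at least 1 bp were merged over tissues, and autosomes 1 to 19 were used. Transcripts are the curated RefSeq models of GRCm38. The edgeR, overlap, motif and permutation steps were tested on simulated data. Python 3.11.15, scipy 1.17.1 and pysam 0.24.0 were used. Apart from the 4 genes, the text names the 4 called genes of each pathway list that changed most between the bone marrow tissues and the others, genes with a defining role (Sp7, the Tle family, Spi1), the 5 genes nearest in pattern to each member, promoter regions, and the 2 strongest regions listed in 1 tissue only. Spp1, Mmp13, Supt3, the shared regions and the markers named beside a result were chosen after their values were seen. So was the count without genes that reached 1 CPM on 1 side only.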

Additional observations from a re-analysis of the deposited data

Results flagged for a closer look

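Runx3 in P-MSC replicate 2, at 0.10 TPM, stood apart from the other 5 non-bone marrow libraries, with a gap to the nearest of 0.70 of their whole range (critical value 0.625 for 6 samples). This was the only one of 10 groups of 5 or 6 libraries that did so, for the TPM of the 4 genes and the ratio of Runx1 to Runx2. Chance flags about 1 in 20 groups of normally distributed values. That rate does not hold for the flagged group, in which most values were 0. The value of P-MSC replicate 2 rests on 8 expected counts. Tissues with 2 or 3 libraries are too few for this rule.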

How the results depend on the processing

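For the 4 genes, 533 values were recomputed. Settings of edgeR were RLE scaling, no filter on low counts, a replicate block, and 1 library left out. The others were edgeR fits of only the 2 tissues compared, DESeq2, and limma-trend on log2(TPM + 1). Of the 533 values, 499 kept their direction and side of the threshold, 22 lost the call, 3 gained it and 9 changed sign. Each of those 9 was for a difference that was not called. All 4 genes passed the filter over the 11 libraries, but in fits of only 2 tissues Runx3 fell below it in the 3 pairs without fBM-MSCs and has no value there. The comparison of bone marrow with non-bone marrow MSCs kept each of its 4 outcomes in all alternatives run. The Runx1 to Runx2 ratio kept its call too, with differences of −1.42 to −0.90 when 1 library was left out.

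In limma-trend, log2 differences were 1.49 for Runx3 between fBM-MSCs and vBM-MSCs (gained), −0.54 for Runx1 and 0.67 for Runx3 between vBM-MSCs and A-MSCs, 0.64 for Runx3 and 0.51 for Cbfb between vBM-MSCs and P-MSCs (all lost), and 0.093 for Runx2 between vBM-MSCs and A-MSCs (sign changed). These are on the log2(TPM + 1) scale, which understates changes of low genes. DESeq2 lost Runx3 between vBM-MSCs and P-MSCs (4.52), and a fit of only fBM-MSCs and vBM-MSCs lost Runx2 (1.31). The cause was not tested.

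Of 15 pairs of libraries with the same replicate number, 1 had a correlation of deviations over 0.1 (median 0.03, range −0.03 to 0.16). Of 30 pairs with other numbers, 1 did as well (median −0.01, range −0.16 to 0.16). With 2 or 3 libraries per tissue, such correlations cannot show whether equal numbers mark the same mouse. With the replicate block, Runx2 between vBM-MSCs and A-MSCs turned to 0.099 and no other call or direction of the 4 genes changed, and the Runx1 to Runx2 ratio had an exact permutation p of 0.00926 over 108 partitions.

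Leaving out 1 library in turn, the adjusted p of Cbfb across the 4 tissues ran from 0.00312 to 0.0663. Log2 differences ran, between fBM-MSCs and vBM-MSCs, from −0.15 to 0.10 for Runx1, 0.93 to 1.64 for Runx2, 1.62 to 6.59 for Runx3 and −0.11 to 0.24 for Cbfb. They ran from 0.22 to 0.57 for Cbfb between fBM-MSCs and A-MSCs. Between vBM-MSCs and A-MSCs they ran from −0.88 to −0.61 for Runx1, −0.36 to 0.24 for Runx2 and 1.75 to 8.94 for Runx3. Between vBM-MSCs and P-MSCs they ran from 0.56 to 8.94 for Runx3 and 0.46 to 0.75 for Cbfb, and for Runx3 between A-MSCs and P-MSCs from −4.36 to 3.17. With 1 vBM-MSC library left, that library is assumed to vary like the other groups. List counts ran from 3 to 5 cofactors higher, 0 to 3 partners lower, and 1 to 2 blood cell targets higher as well as lower. The genes called between fBM-MSCs and vBM-MSCs fell from 1601 to 610 without vBM-MSC replicate 1, and were 305 in the fit of these tissues alone.

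Shares of 1-tissue summits with RUNX letters (A-MSCs, P-MSCs, fBM-MSCs, vBM-MSCs) were 12.4%, 9.67%, 22.9% and 11.9% within 50 bp, and 20.2%, 16.9%, 34.3% and 18.9% with TGTGGT alone. With all listed peaks they were 20.9%, 31.8% and 20.4% in A-MSCs, fBM-MSCs and vBM-MSCs. With all listed peaks, regions numbered 48 near Runx1 (14 in all 4 tissues, 6 in fBM-MSCs only) and 53 near Runx2 (13 in all 4, 13 in fBM-MSCs only), and 0 near Cbfb were in fBM-MSCs only. At a −log10 q of at least 20 they numbered 14 near Runx1 (3 in all 4, 4 in fBM-MSCs only), 12 near Runx2 (7 in 1 tissue, 3 in all 4, 1 in fBM-MSCs only), 10 near Runx3 (7, 1 and 5) and 12 near Cbfb (2, 6 and 1). With overlap of 0.5 of the shorter region, 2 near Runx1 were in fBM-MSCs only. Within 50 kb there were 14 near Runx3 (2 in all 4) and 10 near Cbfb (2 in 1 tissue, 7 in all 4, 1 in fBM-MSCs only).

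Runx3 in A-MSCs and P-MSCs rests on counts so low that a difference between these tissues was not detectable at this depth. The read depth behind the pooled peak lists, which limits what they can list, is not given in the sources used here.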
